A study of Rattus norvegicus with 12 samples.

Results

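The mucus and goblet cell genes are 10 genes chosen by symbol for the work of the colonic goblet cell: Muc2, Clca1, Retnlb, Fcgbp, Tff3 and Zg16, which code for secreted products; Agr2 and B3gnt6, which act on mucin before it is secreted; and the transcription factor genes Spdef and Atoh1. The 10 genes were chosen with earlier results of these data known. All 10 were found among the 14803 genes of the colon table, 9 under their own symbol. Muc2 was found under AABR07006030.1, a clone-based name that RefSeq gives as a synonym of rat Muc2. The series holds 12 RNA-seq libraries, 3 for each of 4 groups: colon and hippocampus, each from rats labelled as having hypoxic ischemic brain damage (HI) and from sham rats. The 6 colon libraries are used here: HI 1, HI 2 and HI 3, and sham 1, sham 3a and sham 3b, where the last 2 carry the same number in the file. The sample titles list sham colon libraries 1, 2 and 3, and no sham colon column carries the number 2. Either sham 3a or sham 3b may therefore be sham 2. The series title places the study in newborn rats and concerns lipopolysaccharide from gut bacteria. The labels used here give no strain, sex or age at sampling, and do not say which stretch of the colon was taken. Nor do they say that the libraries are of different rats, so the p-values below rest on library-to-library spread that could be technical in part. The Y-linked genes given below set sham 1 apart from the other colon libraries.

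Goblet cells are secretory cells of the intestinal epithelium. They fill granules with the gel-forming mucin MUC2, fold it in the endoplasmic reticulum, coat it with sugars in the Golgi apparatus and release it with other proteins as the mucus layer that keeps bacteria off the colonic surface. Atoh1 commits a crypt cell to the secretory lineage, and Spdef acts after it in goblet cell maturation. Hox genes are switched on in register with position from head to tail, so that Hoxb13 marks the distal end of the colon and Hoxb6 stretches nearer to the caecum.

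Levels are in FPKM, a fragment count scaled by transcript length and library size. Depth is unknown, since the table holds no counts. The listed FPKM summed to between 495505 and 509775 per library. The 2 listed Y-linked genes stood at 0.202 FPKM or less in sham 1 and at 10.6 FPKM or more in the other 5 colon libraries. The epithelial genes Epcam, Cdh1, Vil1, Krt8, Krt18 and Cdh17 together summed to between 3256 and 3793 FPKM in HI and between 2969 and 3263 FPKM in sham. The 6 immune cell markers summed to between 55.4 and 69.9 FPKM in HI and between 46.8 and 77.7 FPKM in sham, and the 8 smooth muscle markers to between 6001 and 7270 FPKM in HI and between 5439 and 6725 FPKM in sham. In bulk tissue, fewer goblet cells and less RNA per goblet cell cannot be told apart.

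The libraries stood far apart in their Hox genes, which touches every comparison below. Hoxb13 was at 6.70, 41.4 and 63.0 FPKM in HI 1, HI 2 and HI 3, against 0.466 FPKM in sham 1, a listed 0 in sham 3a and 11.7 FPKM in sham 3b. Hoxb6 was at 20.5, 1.93 and 2.64 FPKM in HI 1, HI 2 and HI 3, against 49.1, 56.5 and 5.50 FPKM in sham 1, sham 3a and sham 3b. The Hoxb13 to Hoxb6 ratio, log2((Hoxb13 + 1)/(Hoxb6 + 1)), was -1.48, 3.85 and 4.13 in HI 1, HI 2 and HI 3, against -5.09, -5.85 and 0.96 in sham 1, sham 3a and sham 3b. From proximal-like to distal-like the order was therefore sham 3a, sham 1, HI 1, sham 3b, HI 2 and HI 3, and a score over 24 Hox genes (3 of group 13 against 21 of groups 2 to 9) gave the same order. HI libraries were on average the more distal-like by 5.50 log2 units of the ratio, and only HI 1 and sham 3b stood in the reverse order.

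Promoters are shown for the pair of members that differed most between libraries, Clca1 and Retnlb, and for Muc2, the main mucin. Each runs 5′ to 3′ in the direction of the gene, from 250 bases before to 50 bases after the start in RefSeq on build GRCr8, and capitals mark the motifs searched for on both strands: the E-box CAGCTG, of the kind bound by Atoh1 and related factors, the Hoxb13-like motif CAATAAA and the STAT6-like motif TTCNNNNGAA.
Clca1: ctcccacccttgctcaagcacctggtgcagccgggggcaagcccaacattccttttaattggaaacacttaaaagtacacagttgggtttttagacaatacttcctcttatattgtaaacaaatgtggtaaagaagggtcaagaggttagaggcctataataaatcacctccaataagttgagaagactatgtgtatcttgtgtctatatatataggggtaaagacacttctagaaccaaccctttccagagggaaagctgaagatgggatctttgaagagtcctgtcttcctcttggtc
Retnlb: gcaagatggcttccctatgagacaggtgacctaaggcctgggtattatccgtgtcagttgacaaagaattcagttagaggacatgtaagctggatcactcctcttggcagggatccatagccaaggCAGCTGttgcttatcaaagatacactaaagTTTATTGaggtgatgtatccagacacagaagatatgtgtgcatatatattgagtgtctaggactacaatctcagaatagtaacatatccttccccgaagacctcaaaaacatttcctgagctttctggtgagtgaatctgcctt
Muc2: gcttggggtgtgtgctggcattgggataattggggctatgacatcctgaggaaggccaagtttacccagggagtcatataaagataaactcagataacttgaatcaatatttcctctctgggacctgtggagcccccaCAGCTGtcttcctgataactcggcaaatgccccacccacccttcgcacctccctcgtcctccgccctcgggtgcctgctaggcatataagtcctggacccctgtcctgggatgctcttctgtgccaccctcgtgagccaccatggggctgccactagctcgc

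These windows lie at chr2:236624665-236624964 on the - strand, chr11:65448270-65448569 on the - strand and chr1:206228785-206229084 on the + strand, in that order. The E-box was found in Retnlb, from position -124, and in Muc2, from position -112, and in 15.1% of all 33469 promoters of the same length. The Hoxb13-like motif was found in Retnlb alone of the members, on the other strand as TTTATTG from position -94, and in 4.57% of all promoters. The STAT6-like motif was in none of the 9 member promoters at hand and in 7.28% of all. The 3 motifs do not overlap in these windows, and a match is a run of letters, not a measured binding site. Among the members, Zg16 alone had no promoter entry.

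The build of the deposited coordinates is not named by the labels or headers. In these coordinates Clca1 lies on chromosome 2 from 250897969 to 250923744 on the - strand and Retnlb on chromosome 11 from 54565472 to 54567357 on the - strand. Muc2 lies at chr1:214664537-214693043, Fcgbp at chr1:85003280-85046840, Zg16 at chr1:198483805-198486157, B3gnt6 at chr1:163143917-163148948, Atoh1 at chr4:95498003-95500089, Agr2 at chr6:55465782-55487714, Tff3 at chr20:9850803-9855481 and Spdef at chr20:7292824-7307284. Clca1 codes for a secreted metalloprotease that is among the abundant proteins of mucus. It stood at 213, 1229 and 1161 FPKM in HI 1, HI 2 and HI 3, against 101, 49.3 and 217 FPKM in sham 1, sham 3a and sham 3b. HI 2 and HI 3 were far above the rest, and HI 1 was just below sham 3b, so the groups overlapped. Retnlb codes for the resistin-like molecule beta, which in mice is secreted by goblet cells, is induced by bacterial colonization and acts on Gram-negative bacteria. It stood at 31.8, 318 and 260 FPKM in HI 1, HI 2 and HI 3, against 23.7, 11.1 and 65.3 FPKM in sham 1, sham 3a and sham 3b. Again HI 2 and HI 3 were far above the rest, sham 3b was above HI 1, and sham 3a was lowest. The highest library was 24.9 times the lowest for Clca1 and 28.6 times for Retnlb. Of the 13753 genes that passed the filter on low values (at least 1 FPKM in at least 3 colon libraries; all 10 members did), 0.138% spanned as wide a log2 range as Clca1 and 0.109% as wide as Retnlb.

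The other secreted products varied far less. Muc2 stood at 453, 811 and 580 FPKM in HI 1, HI 2 and HI 3, against 399, 415 and 566 FPKM in sham 1, sham 3a and sham 3b, with HI 2 highest and the groups overlapping. Fcgbp, a large protein that is bound into the mucus gel with MUC2, stood at 158, 314 and 333 FPKM in HI 1, HI 2 and HI 3, against 185, 174 and 203 FPKM in sham 1, sham 3a and sham 3b. HI 2 and HI 3 were again highest, while HI 1 was the lowest of the 6. Tff3, the trefoil peptide of goblet cells, which takes part in epithelial repair, stood at 343, 464 and 492 FPKM in HI 1, HI 2 and HI 3, against 373, 388 and 431 FPKM in sham 1, sham 3a and sham 3b. Zg16, a lectin that binds Gram-positive bacteria, stood at 570, 1017 and 857 FPKM in HI 1, HI 2 and HI 3, against 931, 728 and 1047 FPKM in sham 1, sham 3a and sham 3b. HI 1 was lowest for both genes, and the groups overlapped.

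**Figure D1:**
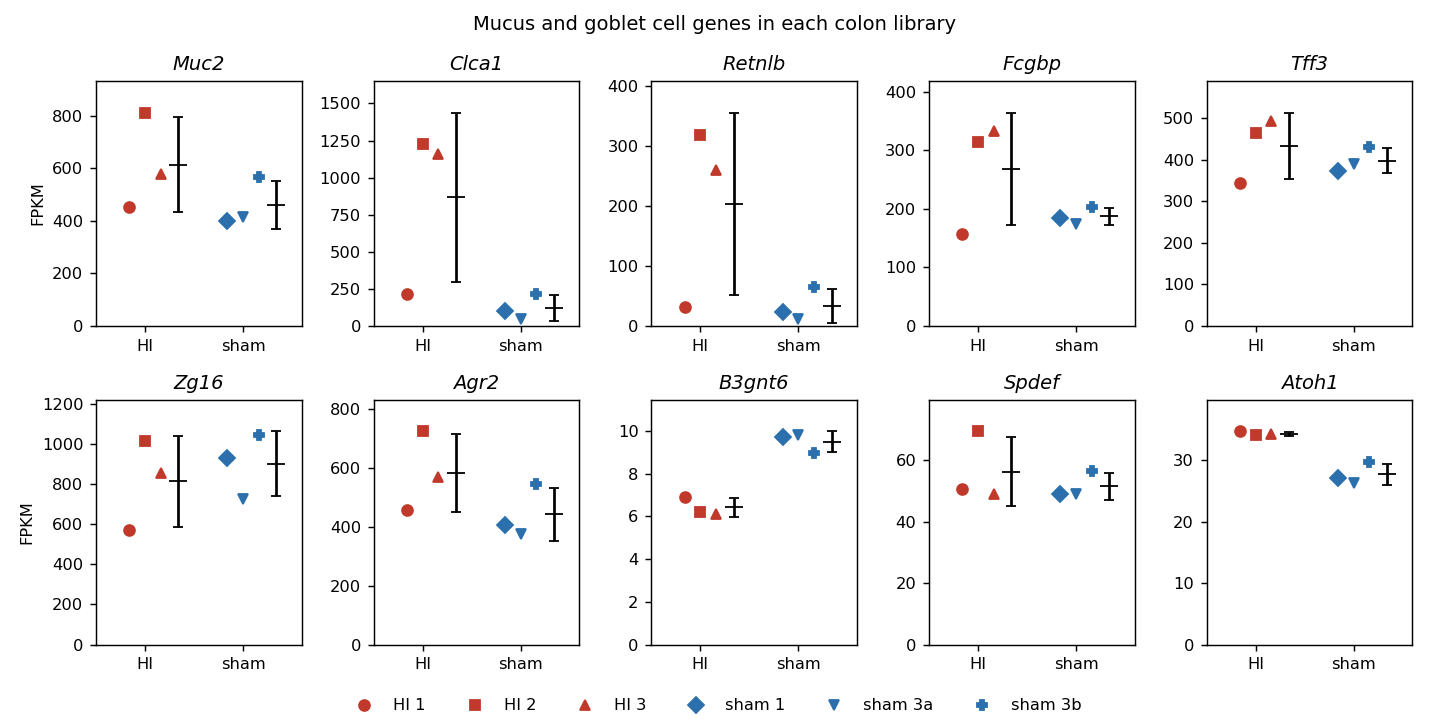
FPKM of the 10 members in the 3 HI (left, red) and 3 sham (right, blue) colon libraries; symbols stand for libraries, and the black bar gives the mean ± SD of each group. HI 2 and HI 3 stand far above the other libraries for Clca1 and Retnlb, and only for B3gnt6 and Atoh1 do HI and sham not overlap.

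Of the genes that act on mucin before secretion, Agr2, a protein disulfide isomerase that Muc2 needs for its assembly in mice, followed Muc2. It stood at 457, 722 and 567 FPKM in HI 1, HI 2 and HI 3, against 405, 375 and 543 FPKM in sham 1, sham 3a and sham 3b. B3gnt6, the enzyme that builds the core 3 O-glycan on colonic mucin, was by far the lowest member. It stood at 6.92, 6.21 and 6.11 FPKM in HI 1, HI 2 and HI 3, against 9.70, 9.83 and 8.94 FPKM in sham 1, sham 3a and sham 3b, so that every HI library was below every sham library. Atoh1 stood at 34.7, 34.1 and 34.2 FPKM in HI 1, HI 2 and HI 3, against 27.2, 26.4 and 29.7 FPKM in sham 1, sham 3a and sham 3b, and every HI library was above every sham library. Spdef stood at 50.6, 69.4 and 49.0 FPKM in HI 1, HI 2 and HI 3, against 49.0, 49.1 and 56.6 FPKM in sham 1, sham 3a and sham 3b, with HI 2 apart from the other 5.

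FPKM is scaled by transcript length, so members can be ranked within a library. Zg16 was the highest of the 10 in HI 1 and in all 3 sham libraries, but Clca1 was the highest in HI 2 and HI 3, where it ranked 25 and 29 among all listed genes, against 310 in HI 1 and 798, 1852 and 309 in sham 1, sham 3a and sham 3b. Muc2 and Agr2 ranked between 2 and 4 of the 10 in each library, and their order changed between libraries. Spdef, Atoh1 and B3gnt6 kept the order given here in every library, with B3gnt6 always last. The members summed to 2318, 4985 and 4338 FPKM in HI 1, HI 2 and HI 3, against 2503, 2226 and 3168 FPKM in sham 1, sham 3a and sham 3b. Of that sum Clca1 made up 9.18, 24.7 and 26.8% in HI 1, HI 2 and HI 3, against 4.02, 2.21 and 6.84% in sham 1, sham 3a and sham 3b, whereas Zg16 made up 24.6, 20.4 and 19.8% in HI 1, HI 2 and HI 3, against 37.2, 32.7 and 33.1% in sham 1, sham 3a and sham 3b.

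Between HI and sham, 0 of the 10 members passed in limma, fitted on log2(FPKM + 1) over all 13753 genes with Benjamini-Hochberg adjustment at 0.05, where 0.0436% of all genes passed. Clca1 averaged 867 ± 568 FPKM in HI and 122 ± 85.7 FPKM in sham (SD, n = 3 each), a log2 difference of 2.70 ± 0.77 (SE; limma adjusted p = 0.357). Retnlb averaged 203 ± 151 FPKM in HI and 33.4 ± 28.3 FPKM in sham (SD, n = 3 each), a log2 difference of 2.37 ± 0.95 (SE; limma adjusted p = 0.437). B3gnt6 averaged 6.41 ± 0.444 FPKM in HI and 9.49 ± 0.481 FPKM in sham (SD, n = 3 each), a log2 difference of -0.50 ± 0.09 (SE; limma adjusted p = 0.204). Atoh1 averaged 34.3 ± 0.336 FPKM in HI and 27.7 ± 1.74 FPKM in sham (SD, n = 3 each), a log2 difference of 0.30 ± 0.07 (SE; limma adjusted p = 0.315). These 4 were the members with an unadjusted p under 0.05, 3 higher and 1 lower in HI, which 11.1% of all genes reached, 4.60% higher and 6.55% lower. Groups that do not overlap, as for Atoh1 (higher) and B3gnt6 (lower), were found in 15.9% of all genes, 5.63% higher and 10.3% lower, so that 2 of 10 members is near the background.

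The remaining members had smaller differences. Fcgbp differed by 0.44 ± 0.27, Muc2 by 0.39 ± 0.22, Agr2 by 0.39 ± 0.19, Spdef by 0.11 ± 0.14, Tff3 by 0.11 ± 0.14 and Zg16 by -0.17 ± 0.22 on the log2 scale (SE), with limma adjusted p between 0.486 and 0.797. With 1 library left out, the difference ran from 0.17 (without HI 2) to 0.59 (without HI 1) for Muc2, from 0.25 (without HI 3) to 0.79 (without HI 1) for Fcgbp, from 0.23 (without HI 2) to 0.56 (without HI 1) for Agr2 and from 0.0084 (without HI 3) to 0.27 (without HI 1) for Tff3, and it turned in sign for Zg16 (0.066 without HI 1) and Spdef (-0.047 without HI 2). The 95% interval of the difference ran from -0.22 to 0.44 for Tff3, from -0.13 to 0.92 for Muc2 and from -0.70 to 0.36 for Zg16, and each of these intervals includes 0. The median difference was 0.35 over the 10 members, 8 of them positive, against -0.04 over all genes tested, of which 40.9% were positive. In the authors' deposited table, whose unadjusted p was under 0.05 for 13.5% of all genes, it was under 0.05 for Atoh1 (0.00968) and B3gnt6 (0.000634), and was 0.0741 for Clca1 and 0.0939 for Retnlb.

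The members were also set against the epithelium, by subtracting the mean log2(FPKM + 1) of the 6 epithelial genes in each library. This takes the same 0.12 off the difference of every member. Those of Tff3 and Spdef came to -0.01 each and that of Atoh1 was smaller, while Clca1 and Retnlb stayed far above the others. The epithelial mean itself was 8.68 in HI and 8.56 in sham. On this scale the difference was 2.58 for Clca1, 2.25 for Retnlb, 0.33 for Fcgbp, 0.28 for Muc2, 0.28 for Agr2, -0.01 for Tff3, -0.29 for Zg16, -0.01 for Spdef, 0.18 for Atoh1 and -0.62 for B3gnt6, as a description with no test. Markers of dividing cells (Mki67, Top2a, Cdk1 and Cdc20) summed to between 86.0 and 95.3 FPKM in HI and between 128 and 140 FPKM in sham, so that the groups did not overlap. Of all genes, 10.3% were lower in HI with no overlap. All 4 were lower at an unadjusted p under 0.05, as were 6.55% of all genes. All 4 also fell along the Hoxb13 to Hoxb6 ratio at an unadjusted p under 0.05, which 3371 of 13753 genes reached in either direction. With HI and the ratio in the same fit, 3 were lower in HI at that threshold, which 5.20% of all genes reached in either direction. At that threshold in the same fit, 3 of 5 tested immune cell markers were higher in HI. Of 5 tested fibroblast markers 2 were lower. After adjustment in limma 0 of either list passed. The part of dividing, immune or fibroblast cells in the differences of the members was not tested.

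The members were then set against the place of each library in the Hox order, with the ratio as the only term in the fit. In this fit 5 of 10 members passed, all of them higher toward the distal-like end, where 7.63% of all genes passed, 3.32% with a higher and 4.31% with a lower level there (456 of 1049 higher, and 585 of 1028 with median-ratio scaling of the libraries). Both the members and the Hox order were chosen with earlier results of these data known. The count beside the share of all genes is therefore a description, not a test of the members as a set. Retnlb rose by 0.43 ± 0.04 log2 units per log2 unit of the ratio (SE; limma adjusted p = 0.000832), which comes to 18.9-fold over the 9.98 units between the end libraries. Clca1 rose by 0.41 ± 0.04 per unit (SE; limma adjusted p = 0.00113), or 17.5-fold. Agr2 rose by 0.08 ± 0.01 (adjusted p = 0.00862), Muc2 by 0.08 ± 0.02 (adjusted p = 0.0241) and Fcgbp by 0.09 ± 0.02 (adjusted p = 0.0440), which come to 1.69-fold, 1.73-fold and 1.84-fold.

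The slopes of Clca1 and Retnlb were larger than those of the other members. The 95% interval of the slope ran from 0.32 to 0.51 for Clca1 and from 0.33 to 0.52 for Retnlb, against 0.04 to 0.12 for Muc2, 0.05 to 0.10 for Agr2 and 0.04 to 0.14 for Fcgbp. Tff3 (0.04 ± 0.01, adjusted p = 0.109), Atoh1 (0.03 ± 0.01, adjusted p = 0.129), Zg16 (0.03 ± 0.03, adjusted p = 0.522) and Spdef (0.03 ± 0.01, adjusted p = 0.322) did not pass. B3gnt6 had the only negative slope of the 10, -0.06 ± 0.02 (adjusted p = 0.0759), so that 9 of 10 members had a positive slope, as had 37.9% of all genes. Within the sham group alone, Clca1 and Retnlb were lowest in sham 3a, higher in sham 1 and highest in sham 3b, which is the order of the ratio, and within HI both were lowest in HI 1, the least distal-like of the 3, but higher in HI 2 than in HI 3, against the order of the ratio.

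**Figure D2:**
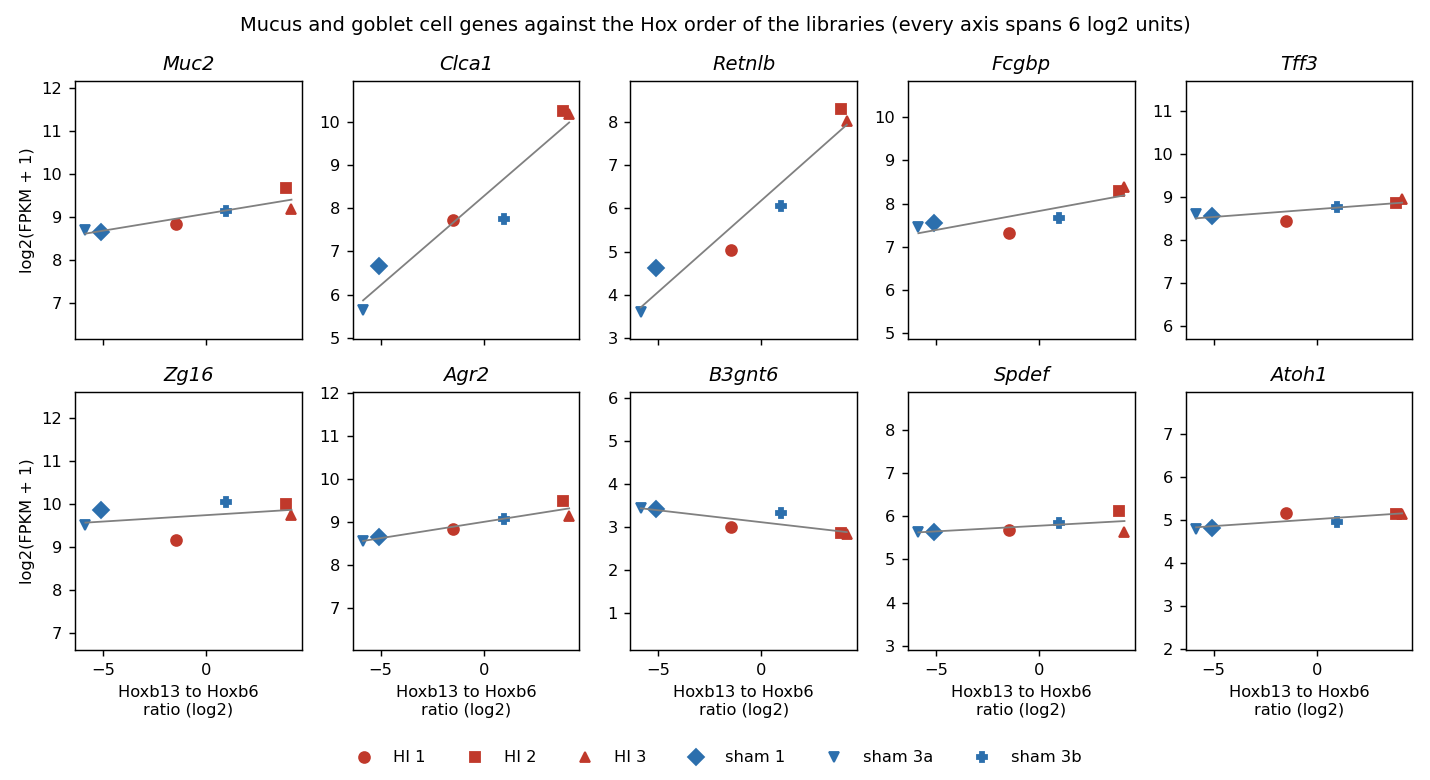
log2(FPKM + 1) of the 10 members against the Hoxb13 to Hoxb6 ratio (log2) of each library, HI in red and sham in blue; the grey line is a straight-line fit, and every vertical axis spans the same range. Clca1 and Retnlb climb steeply from sham 3a to HI 2 and HI 3, while Tff3, Zg16, Spdef and Atoh1 are nearly level.

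Leaving out 1 library at a time, Clca1 and Retnlb passed each time, with slopes from 0.38 to 0.45 for Clca1 (adjusted p up to 0.0131) and from 0.39 to 0.47 for Retnlb (adjusted p up to 0.00999). Muc2 did not pass without sham 1 (adjusted p = 0.111) or sham 3a (0.0920), Agr2 without sham 3a (0.0785) and Fcgbp without HI 2 (0.163), HI 3 (0.124), sham 1 (0.0948) or sham 3a (0.124). B3gnt6 passed without sham 3b (-0.06, adjusted p = 0.0410). Without both proximal-like libraries, sham 3a and sham 1, the slope was 0.50 for Clca1 (adjusted p = 0.104), 0.10 for Muc2 (0.551) and 0.08 for Agr2 (0.547), and only Retnlb and Fcgbp of the members passed, among 34 genes in all.

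With HI and the ratio in the same fit, both terms share 6 libraries, and HI and a distal-like place are told apart mainly by HI 1 and sham 3b. At equal ratio 0 of the 10 members passed for HI in limma, where 0.0145% of all genes did, and 2 members had an unadjusted p under 0.05, as had 5.20% of all genes. Retnlb differed by 0.06 ± 0.47 (SE, limma adjusted p = 0.999), with a 95% interval from -1.04 to 1.16, and Clca1 by 0.83 ± 0.38 (adjusted p = 0.991), with an interval from -0.08 to 1.73. With 1 library left out, the estimate ran from -1.43 (without sham 3b) to 1.14 (without HI 1) for Retnlb and from -0.32 (without sham 3b) to 1.62 (without HI 1) for Clca1, and the sign also turned for Muc2, Fcgbp, Tff3 and Agr2. Muc2 differed by -0.08 ± 0.18, Fcgbp by -0.08 ± 0.25 and Agr2 by -0.04 ± 0.14. The pair with an unadjusted p under 0.05 was Zg16, at -0.65 ± 0.18 (adjusted p = 0.794), and B3gnt6, at -0.38 ± 0.12 (adjusted p = 0.855). Atoh1 differed by 0.24 ± 0.10 (adjusted p = 0.959). With 1 library left out, Zg16 ran from -1.07 (without sham 3b) to -0.35 (without HI 1) and Atoh1 from 0.12 (without HI 1) to 0.37 (without sham 3b). The median over the members was -0.07, against 0.01 over all genes tested.

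**Figure D3:**
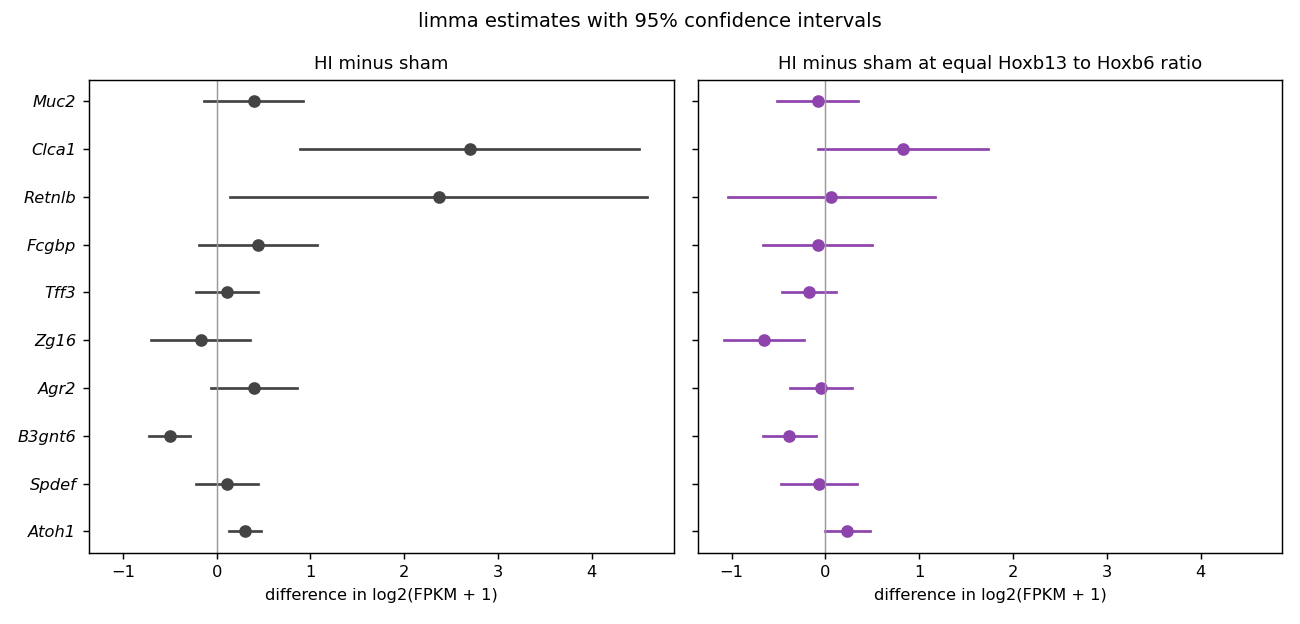
Estimated difference in log2(FPKM + 1) between HI and sham for each member, with its 95% confidence interval from limma, with HI alone in the fit (left) and at equal Hoxb13 to Hoxb6 ratio (right). The estimate for Retnlb is 2.37 on the left and 0.06 on the right, whereas that for B3gnt6 is -0.50 on the left and -0.38 on the right; with 1 library left out, the right-hand estimate for Retnlb runs from -1.43 to 1.14.

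In the same fit the slope on the ratio, at equal group, passed for Clca1 (0.34 ± 0.05 per unit, adjusted p = 0.0158) and Retnlb (0.42 ± 0.06, adjusted p = 0.0155) and for no other member, where 2.63% of all genes passed. HI 1 and sham 3b, the libraries in the middle of the order, are 1 of each group, with sham 3b the more distal-like. HI 1 stood at 0.982 times the level of sham 3b for Clca1, 0.800 for Muc2, 0.842 for Agr2, 0.545 for Zg16, 0.487 for Retnlb, 0.774 for B3gnt6 and 1.17 for Atoh1.

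Other genes of the mucus pathway were read from lists, whose counts stand against the 3.32% of all genes that rose and the 4.31% that fell toward the distal-like end. The lists too were chosen with earlier results of these data known. Of 18 tested genes of mucin glycosylation 5 rose and 1 fell toward that end. St6galnac1, which adds sialic acid to the first sugar of mucin O-glycans, stood at 18.4, 75.0 and 74.0 FPKM in HI 1, HI 2 and HI 3, against 6.48, 7.43 and 26.5 FPKM in sham 1, sham 3a and sham 3b. It rose by 0.34 ± 0.02 per unit of the ratio (adjusted p = 0.000239), or 10.2-fold between the end libraries. Its relative St6galnac6 rose by 0.27 ± 0.03 (adjusted p = 0.00113), or 6.42-fold. The fucosyltransferase gene Fut2, whose product puts the H antigen on mucin, rose 2.14-fold (adjusted p = 0.00519), and St3gal6, another sialyltransferase gene, fell to 0.339 times (adjusted p = 0.00195). Between HI and sham 0 of the 18 passed in limma, and 4 had an unadjusted p under 0.05, as had 11.1% of all genes.

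Of 16 tested genes of other secreted and goblet cell products 3 rose and 1 fell toward the distal-like end, where 3.32% of all genes rose and 4.31% fell. The secreted phospholipase gene Pla2g10 stood at 62.0, 91.1 and 111 FPKM in HI 1, HI 2 and HI 3, against 35.2, 31.5 and 76.8 FPKM in sham 1, sham 3a and sham 3b, and rose 3.15-fold between the end libraries (adjusted p = 0.000344). Bcas1 rose 1.72-fold (adjusted p = 0.0250) and Agr3, a relative of Agr2, fell to 0.646 times (adjusted p = 0.0265). Pla2g4c, a cytosolic phospholipase gene, stood at 14.9, 14.7 and 32.9 FPKM in HI 1, HI 2 and HI 3, against 1.36, 2.66 and 5.31 FPKM in sham 1, sham 3a and sham 3b, with no overlap. It rose 7.21-fold between the end libraries (slope 0.29 ± 0.06, adjusted p = 0.0358), the largest fold of the 3. Its log2 difference between HI and sham was 2.43 ± 0.42 (SE; limma adjusted p = 0.187), and 1.67 at equal ratio (unadjusted p = 0.00506, limma adjusted p = 0.765). At equal ratio 2 genes of this list were higher in HI at an unadjusted p under 0.05, a threshold that 5.20% of all genes reached. The other was Guca2a, at 0.36 (limma unadjusted p = 0.00423, adjusted p = 0.765). How far these values rest on HI 1 and sham 3b was not tested.

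Itln1 codes for intelectin, a lectin of goblet and Paneth cells that binds microbial sugars. It did not follow the Hox order as Clca1 did. It stood at 96.0, 523 and 525 FPKM in HI 1, HI 2 and HI 3, against 116, 130 and 31.8 FPKM in sham 1, sham 3a and sham 3b, so that sham 3b was the lowest of the 6. Its slope was 0.18 ± 0.11 (adjusted p = 0.366) and its difference between HI and sham 1.91 ± 0.77 (SE; limma adjusted p = 0.441). Of 10 membrane-bound mucins sought, 3 were among the genes listed for the colon and 2 were tested. Muc1 rose 2.94-fold between the end libraries (adjusted p = 0.0167), while Muc13 had a slope of 0.01 ± 0.01 (adjusted p = 0.527).

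Of the 18 genes of folding and secretion in goblet cells, 1 rose and 1 fell toward the distal-like end, near the 7.63% of all genes that passed in either direction. Rab3d, a GTPase of secretory granules, rose 1.46-fold (adjusted p = 0.0169), and Nlrp6, an inflammasome sensor tied to mucus release in mice, fell to 0.577 times (adjusted p = 0.00432). Of the 16 transcription factor and Notch genes of the secretory lineage 2 rose and 1 fell, against the same 7.63% in either direction. Klf4, which goblet cells of the mouse colon need to mature, stood at 178, 241 and 217 FPKM in HI 1, HI 2 and HI 3, against 81.3, 81.4 and 155 FPKM in sham 1, sham 3a and sham 3b. The groups did not overlap. Klf4 rose 2.81-fold between the end libraries (adjusted p = 0.00325), and its difference between HI and sham was 1.05 ± 0.25 (limma adjusted p = 0.315). At equal ratio its difference was 0.45 ± 0.15 (limma unadjusted p = 0.0196, adjusted p = 0.855). An unadjusted p under 0.05 was reached there by 5.20% of all genes. How far the value for Klf4 rests on HI 1 and sham 3b was not tested. Foxa2, a forkhead factor, rose 2.61-fold (adjusted p = 0.00300), and Sox9, a factor of crypt base cells, fell to 0.721 times (adjusted p = 0.0270).

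In the opposite direction to Clca1 and Retnlb went Reg4, which in the mouse colon marks deep crypt secretory cells. It stood at 17.2, 7.74 and 7.33 FPKM in HI 1, HI 2 and HI 3, against 48.7, 77.8 and 11.3 FPKM in sham 1, sham 3a and sham 3b. It fell to 0.120 times from the proximal-like to the distal-like end (slope -0.31 ± 0.02, adjusted p = 0.000491). Of the 9 tested markers of absorptive colonocytes 1 rose, the sodium channel gene Scnn1a by 5.88-fold (adjusted p = 0.000365), and 2 fell, Car1 to 0.244 times (adjusted p = 0.0322) and Car2 to 0.662 times (adjusted p = 0.0231). Of the 6 general epithelial genes 0 passed in limma and 1, Krt8, had an unadjusted p under 0.05 for the slope, as had 3371 of all 13753 genes. Of the 6 tested genes of the type 2 cytokine and interleukin 22 route, among them the receptor gene Il13ra1 and Stat6, 0 passed for the slope or for HI in limma, with 1 and 0 at an unadjusted p under 0.05. These counts stand against the same 3371 genes for the slope and 11.1% of all genes for HI. Il13, Il4 and Il25 were not among the genes listed.

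**Figure D4:**
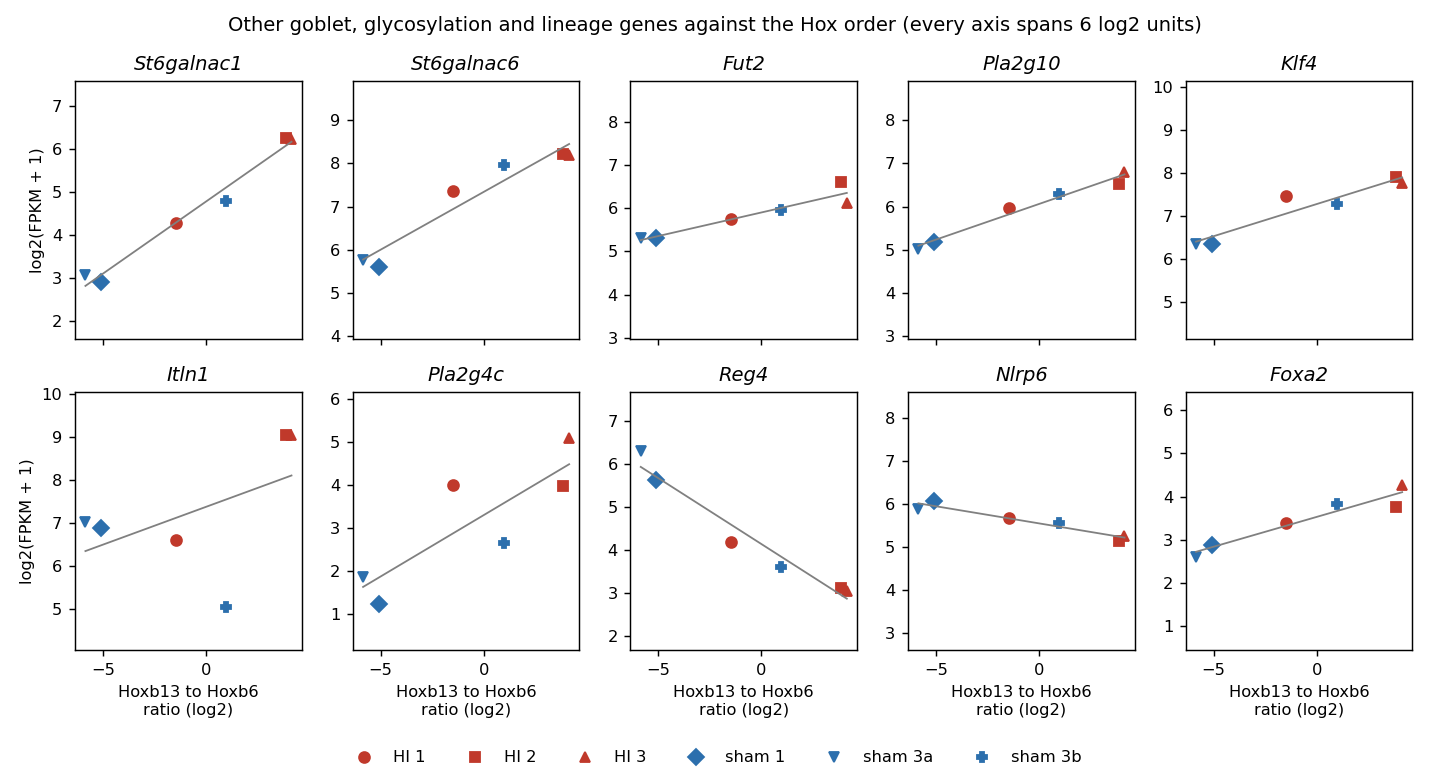
log2(FPKM + 1) of 10 other genes of mucin glycosylation, goblet cell products and the secretory lineage against the Hoxb13 to Hoxb6 ratio (log2) of each library, HI in red and sham in blue, with a straight-line fit in grey and the same range on every vertical axis. St6galnac1, St6galnac6, Pla2g10 and Klf4 climb and Reg4 falls along the order, while Itln1 is lowest in sham 3b.

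In the hippocampus table, which the authors made separately, 6 of the 10 members were listed. Each of the 6 was highest in the hippocampus library sham 1, at levels there from 0.982 FPKM for Fcgbp to 3.31 FPKM for Zg16.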

How the data were processed

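The authors deposited 1 table per tissue. Per the labels' protocols, RNA was extracted with TRIzol and mRNA was purified, fragmented and amplified by PCR. The aligner, quantifier, build and annotation were not given in the sources used here. Per the file headers the values of each library are FPKM. The authors' deposited log2 fold change equalled mean log2(FPKM + 1) in HI minus that in sham, within 1e-06 for all 14803 colon genes, the fold change its ratio, and the p-value was unadjusted; these were used only where the authors' table is named.

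The members, lists and the Hoxb13 to Hoxb6 order were chosen with earlier results of these data known. Symbols were matched to the table and otherwise through RefSeq synonyms (assembly GRCr8), which added Muc2. limma 3.58.1 in R 4.3.3 was fitted (eBayes, trend) to log2(FPKM + 1), pseudocount 1, over the 13753 genes that reached 1 FPKM in 3 or more of the 6 colon libraries, with HI, with the Hox ratio, or with both as terms, and p-values were adjusted by Benjamini-Hochberg over all of them. A fold change on this scale understates the change of low genes. The log2 change between the end libraries is the slope times the span of the ratio, and the fold is that change taken off the log2 scale. Named genes were all members and, of each list, the 3 with the smallest p for HI and for the slope. Not all of these are described. Guca2a stands outside this rule and was named for its p at equal ratio. The fits were also run on simulated data with independent noise for each gene, which does not reproduce differences between whole libraries. Alternatives were a pseudocount of 0.1, no filter, median-ratio scaling, a score over 24 Hox genes, 1 fit over the 12 libraries of both tissues and leaving out libraries. Depth is unknown, so no counting intervals are given.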

Additional observations from a re-analysis of the deposited data

How the results depend on the processing

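Of the members' slopes on the Hox ratio, 5 passed with a pseudocount of 0.1, with no filter, with median-ratio scaling and with the score over 24 Hox genes, as in the report. Genes passing for the slope numbered 1049, and between 303 (without sham 3a) and 1057 (without HI 3) with 1 library left out, and 34 without sham 3a and sham 1 together. Of those 1049, 456 were higher at the distal-like end, against 585 of 1028 with median-ratio scaling. For HI against sham 6 genes passed, 1 of them higher (2 of 6 with median-ratio scaling), between 2 (without HI 3) and 38 (without sham 3b) with 1 library left out, and 24 in the fit over 12 libraries. In the fits on the colon alone 0 of 10 members passed, with between 3 and 8 at an unadjusted p under 0.05. The fit over 12 libraries held only the 6 members listed in both tissues, not Retnlb, Spdef, Atoh1 or B3gnt6; 0 of those 6 passed, with 1 at an unadjusted p under 0.05. At equal ratio 2 genes passed, 1 with a pseudocount of 0.1, 1 with the score over 24 Hox genes, 3 with median-ratio scaling, and between 1 and 6 with 1 library left out; again 0 members passed, with between 2 and 4 at an unadjusted p under 0.05.

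The direction of the difference between HI and sham turned for Zg16 without HI 1 (0.066) and for Spdef without HI 2 (-0.047), with the range over libraries left out from -0.35 to 0.066 and from -0.047 to 0.20. At equal ratio, where a library left out leaves 5, the difference ranged from -0.23 to 0.082 for Muc2, from -0.32 to 1.62 for Clca1, from -1.43 to 1.14 for Retnlb, from -0.93 to 0.57 for Fcgbp, from -0.48 to 0.067 for Tff3 and from -0.11 to 0.021 for Agr2, the lowest without sham 3b and the highest without HI 1 in each of these 6, so its sign rests on those libraries. For Retnlb it was also -0.05 without HI 2. It kept its sign for Zg16 (-1.07 to -0.35), Spdef (-0.13 to -0.023), Atoh1 (0.12 to 0.37) and B3gnt6 (-0.42 to -0.34). The cause was not tested. Relative to the epithelium, the median difference of the members was 0.23 on the log2 scale (0.36 relative to Epcam alone), and between 0.10 and 0.30 with 1 library left out. No paired analysis was possible because 2 sham columns carry the number 3 and no sham column carries 2, so HI and sham share only 1 number that names a library in each group. With no counts deposited, the precision of low values such as B3gnt6 cannot be given.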
